A study of Mus musculus with 18 samples.

Results

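The 10 genes described here are the D-type cyclin genes Ccnd1, Ccnd2 and Ccnd3, the genes Cdkn1a, Cdkn1b, Cdkn1c, Cdkn2a, Cdkn2b and Cdkn2c of inhibitors of cyclin-dependent kinases (CDKs), and the transcription factor gene Myc. They were taken by symbol from the 32285 gene identifiers of the count table, and all 10 passed the filter on low counts, as did 15072 genes in all. The libraries were made from fibroblasts sorted from the synovium of paws of mice labelled WT, which were naive or had K/BxN serum transfer arthritis (STIA), a joint inflammation caused by transferred serum. Naive cells were left unstimulated or were given FGF2 (fibroblast growth factor 2) at 10 ng/mL, OPN (osteopontin, a secreted ligand of integrins and CD44) at 50 ng/mL, or both, for 3 days in culture. STIA cells were left unstimulated or were given OPN alone at 50 ng/mL, also for 3 days. Each of the 6 groups held 3 libraries. Details not given in the sources used here include the age and sex of the mice, the day of arthritis, the time unstimulated cells spent in culture, and whether replicates were separate mice or cultures. The p-values therefore measure only the spread between these libraries, which may be technical. Comparisons with unstimulated cells, and interaction terms that include them, cannot tell a factor apart from culture time if that time differed. STIA cells with FGF2 were not analysed here.

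D-type cyclins bind CDK4 and CDK6, and the complexes phosphorylate the retinoblastoma protein RB, which releases E2F transcription factors and lets a cell enter S phase. Growth factors act on this step mainly through cyclin D1, whose gene is a classic target of ERK signalling in fibroblasts. The CIP/KIP inhibitors (products of Cdkn1a, Cdkn1b and Cdkn1c) block cyclin E and cyclin A complexes with CDK2, and the INK4 inhibitors (products of Cdkn2a, Cdkn2b and Cdkn2c) bind CDK4 and CDK6 and keep cyclin D away. Myc drives genes of ribosome biogenesis and metabolism and is itself an early target of mitogens.

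Library totals ran from 27527043 to 40357342 counts, and 3 counts, the floor used for a gene not detected, came to 0.0743 to 0.109 CPM (counts-per-million of the library total). Summed CPM of 10 fibroblast markers ran from 67582 to 75975 in unstimulated naive libraries and from 21765 to 23367 with FGF2, the lowest group. Collagen genes carried that difference (Col1a1 from a mean of 35894 to 4177 CPM), while Vim went from 4906 to 8943 CPM, Pdpn from 176 to 850.4 CPM and Pdgfra from 308 to 407 CPM, and 3 of the 10 were called higher and 5 lower. Of 8 macrophage markers, Ptprc stayed at or below 0.253 CPM, Adgre1 at or below 0.0695 CPM, C1qa at or below 0.0337 CPM and C1qb at or below 0.0727 CPM in each library. The other 4 were tested, and 2 were called higher with FGF2 and 2 lower. Their means went from 5.85 to 44.9 CPM (Cd14), 1.21 to 3.97 CPM (Cd68), 3.75 to 0.594 CPM (Lyz2) and 2.84 to 0.492 CPM (Csf1r). Lyz2 was at a mean of 9.80 CPM in naive cells with OPN. The summed level was 47.6 to 52.8 CPM with FGF2 against 12.7 to 14.2 CPM in unstimulated naive cells, mostly from Cd14. Summed CPM of 3 skeletal muscle markers was 56.4 to 73.8 in unstimulated STIA libraries and 5.50 to 7.39 in unstimulated naive ones, nearly all from Acta1, with Ckm at or below 0.0961 CPM throughout. Of 7 pericyte and smooth muscle markers 1 was called higher with FGF2 (Rgs5, from 2.16 to 42.0 CPM) and 5 lower, and the summed level was 262.5 to 374 CPM with FGF2 and 302 to 317 CPM in unstimulated naive cells. Of 5 endothelial markers 4 were tested and 3 were called higher with FGF2, Kdr from 1.00 to 9.31 CPM among them, and 1 lower (Tek, from 9.49 to 1.14 CPM), with Pecam1 at or below 0.507 CPM and Emcn at or below 0.137 CPM in each library. Cd3e and S100a9, markers of T cells and neutrophils, had no count in any library, which allows up to the 3-count floor. The part of these shifts in the results below was not tested. In these bulk libraries fewer cells with a transcript and less transcript per cell cannot be told apart.

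Levels below are CPM on library sizes scaled by the trimmed mean of M-values (TMM), printed for replicates 1, 2 and 3 in that order or as mean ± SD over 3 libraries. Changes are log2 fold changes ± SE from the edgeR quasi-likelihood model over all 18 libraries, and a gene is called where the Benjamini-Hochberg adjusted p over 15072 genes is below 0.05. FGF2 raised 5 of the 10 genes in naive cells and lowered 4, in a comparison that called 57.1% of all genes tested, 29.1% higher and 28.1% lower. OPN raised 4 and lowered 2, with 31.7% of all genes called, 15.2% higher and 16.5% lower. Both factors together raised 6 and lowered 2, with 49.8% called, 23.7% higher and 26.1% lower. STIA cells against naive cells, both unstimulated, had 4 of the genes higher and 1 lower, with 36.8% called, 18.6% higher and 18.2% lower. All 4 comparisons share the unstimulated naive libraries. The median log2 fold change of the 10 genes was 0.19 with FGF2, 0.20 with OPN, 0.26 with both and 0.18 in STIA cells, against 0.00990, 0.00426, -0.00774 and -0.00979 over all genes tested.

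**Figure D1:**
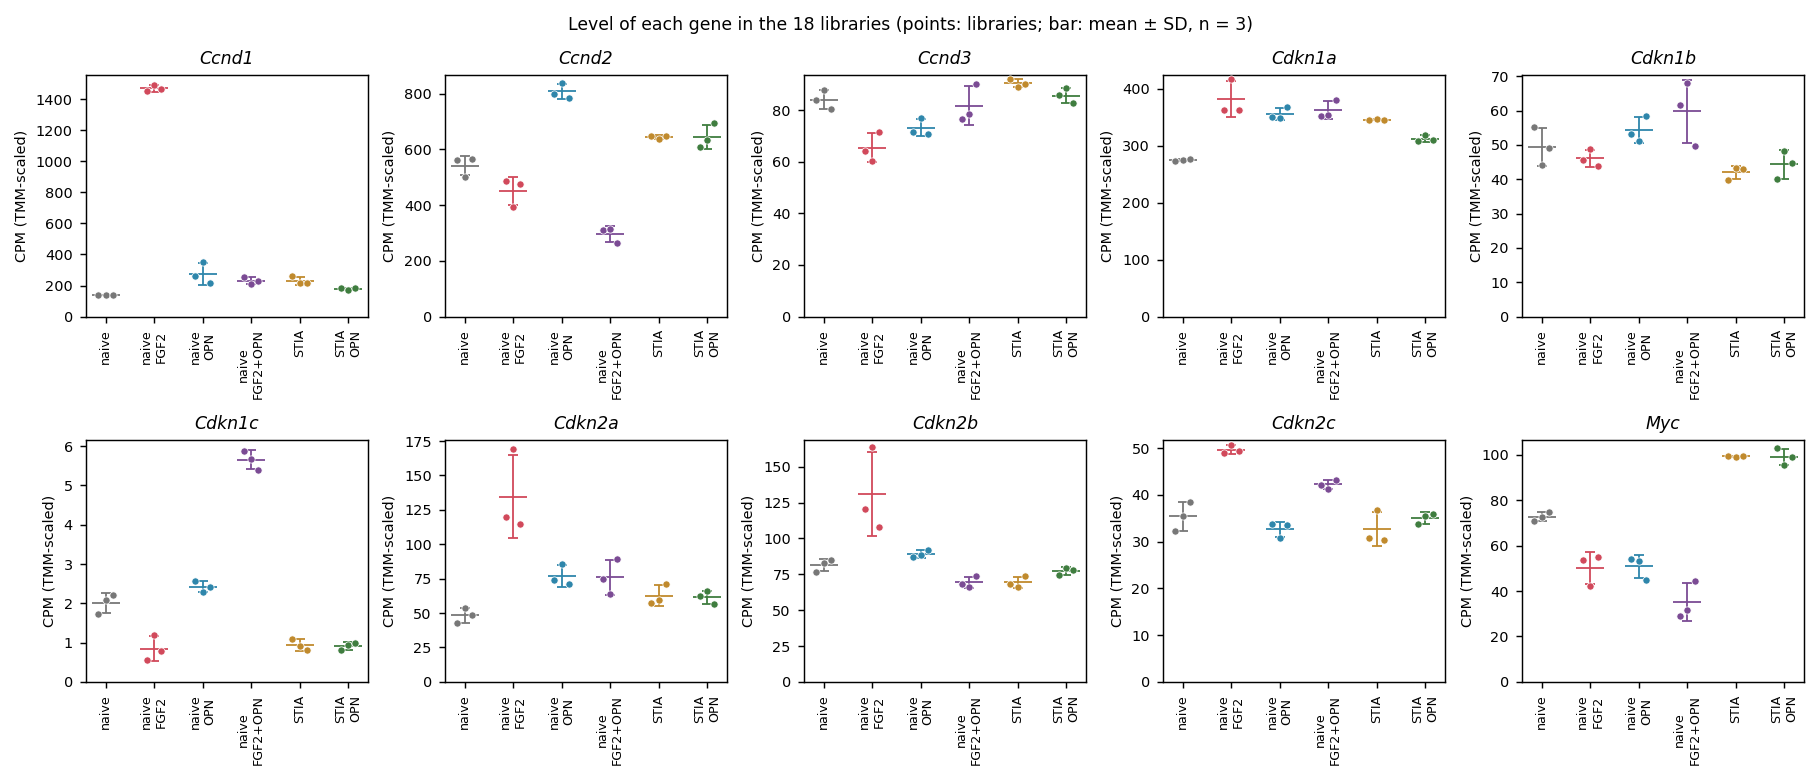
Level of each of the 10 genes in CPM (TMM-scaled, linear axis from 0) in the 18 libraries, by group; points are libraries and bars are mean ± SD of 3. Ccnd1 with FGF2 sits near 1468 CPM and at or below 352 CPM in the other libraries, Cdkn1c is highest with both factors, and Myc is highest in both STIA groups.

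Ccnd1 encodes cyclin D1 (ENSMUSG00000070348, chr7:144929931-144939925, minus strand, GRCm38). Its level was 137, 138 and 139 CPM in the 3 unstimulated naive libraries, and it was 1451, 1490 and 1462 CPM with FGF2. FGF2 libraries lay far above all others, and the rise was 10.6-fold (log2 fold change 3.41 ± 0.14, adjusted p = 2.29e-13). Of all genes tested, 3.60% had a larger change in either direction. OPN alone gave 259, 352 and 216 CPM, and both factors together gave 255, 207 and 231 CPM. The libraries with OPN and those with both factors overlapped, and all lay above the unstimulated ones: OPN raised Ccnd1 by 1.00 ± 0.13, adjusted p = 1.41e-05, and both factors raised it by 0.74 ± 0.13, adjusted p = 9.83e-05. Cells with both factors thus held 6.36-fold less Ccnd1 than cells with FGF2 alone (-2.67 ± 0.13, adjusted p = 9.4e-12). Adding FGF2 to OPN gave a difference of -0.26 with a 95% interval of -0.52 to 0.01, which did not pass the test (edgeR adjusted p = 0.0882). That difference rested on single OPN libraries: it was -0.0443 without OPN replicate 2 and -0.41 without OPN replicate 3 (adjusted p = 0.00276), and with no filter on low counts it passed the test (-0.27, adjusted p = 0.000937).

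The FGF2 effect on Ccnd1 was smaller with OPN than without it, at a difference of -3.67 ± 0.18 on the log2 scale (edgeR interaction term, adjusted p = 2.05e-11). This interaction test called 51.2% of all genes (27.2% with a negative and 24.1% with a positive term) and 7 of the 10 genes here, 5 with a negative and 2 with a positive term. STIA cells held 259.7, 214 and 214 CPM of Ccnd1 unstimulated and 181, 168 and 184 CPM with OPN. Unstimulated STIA libraries lay above unstimulated naive ones (0.73 ± 0.13, adjusted p = 0.000221), whereas STIA libraries with OPN lay below naive ones with OPN (-0.64 ± 0.13, adjusted p = 0.000637). That last comparison, STIA against naive cells both given OPN, called 40.0% of all genes (21.1% higher and 18.9% lower) and 2 of the 10 genes higher and 5 lower. Of the 10, 3 were lower without OPN replicate 3 and 7 without FGF2 replicate 2, a library of neither group that enters the shared estimate of spread. OPN replicate 2 was the highest of the naive OPN libraries, and without it the value was -0.42 (adjusted p = 0.00112). In a fit of only the 2 groups compared its adjusted p was 0.0569. In order of mean level the groups ran from FGF2 through OPN, both factors and STIA, whose libraries overlapped with their neighbours, to STIA with OPN and then unstimulated naive cells. An exonic stretch of LTO1 on the opposite strand overlaps Ccnd1, and LTO1 held 9.27 to 20.7 CPM, or 3.35% of Ccnd1's counts over all libraries. FGF2 libraries lower that share: unstimulated naive cells held means of 13.7 CPM of LTO1 and 138 CPM of Ccnd1. LTO1 moved the same way as Ccnd1 for OPN in naive cells (0.55, adjusted p = 0.000717). The same held for STIA against naive cells with OPN (-0.84) and the interaction (-0.64). With FGF2 LTO1 did not pass the test (0.02, adjusted p = 0.885). In unstimulated STIA cells it was lower (-0.35, adjusted p = 0.0225), where Ccnd1 was higher.

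Ccnd2, the gene of cyclin D2 (ENSMUSG00000000184, chr6:127125162-127152193, minus strand), moved differently from Ccnd1. Unstimulated naive libraries held 560.0, 502 and 564 CPM, FGF2 libraries 486, 393 and 476 CPM and OPN libraries 799, 839.7 and 785 CPM. OPN libraries were the highest of the 6 groups, FGF2 libraries lay below unstimulated ones, and no pair of these 3 groups overlapped. OPN raised Ccnd2 1.49-fold (0.58 ± 0.08, adjusted p = 1.16e-05) and FGF2 lowered it by a smaller amount (-0.26 ± 0.08, adjusted p = 0.00723). The fall with FGF2 was lost without FGF2 replicate 2 (-0.17, adjusted p = 0.0572) and with library totals as the only scaling (adjusted p = 0.0835). With both factors the level was 312, 315 and 265 CPM, the lowest of all groups. That was below unstimulated cells (-0.87 ± 0.08, adjusted p = 9.17e-09), below FGF2 alone (-0.60 ± 0.08, adjusted p = 1.03e-06) and 2.72-fold below OPN alone (-1.44 ± 0.08, adjusted p = 2.17e-12). The effect of OPN was therefore upward without FGF2 and downward with it, and the interaction term was -1.18 ± 0.11, adjusted p = 1.4e-08. STIA libraries held 649, 637 and 648 CPM unstimulated and 607, 634 and 694 CPM with OPN, which overlapped. STIA cells without OPN were above naive ones (0.25 ± 0.08, adjusted p = 0.0168), a call that ended without unstimulated naive replicate 2 (adjusted p = 0.0929) or without STIA replicate 1 (adjusted p = 0.0538).

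Ccnd3, the gene of cyclin D3 (ENSMUSG00000034165, chr17:47505051-47599691, plus strand), varied least among the D cyclins, with group means from 65.4 ± 5.67 CPM (FGF2) to 90.5 ± 1.56 CPM (unstimulated STIA). Unstimulated naive libraries held 84.0, 88.0 and 80.4 CPM and FGF2 libraries 64.4, 60.4 and 71.6 CPM, which did not overlap, and Ccnd3 fell by 0.36 ± 0.07 on the log2 scale with FGF2 (adjusted p = 8.64e-05). OPN libraries held 71.7, 76.9 and 70.8 CPM (-0.20 ± 0.07, adjusted p = 0.0265). That smaller fall with OPN did not pass the test without unstimulated naive replicate 1 or 2 (adjusted p = 0.0553 and 0.108) or without OPN replicate 1 or 3 (adjusted p = 0.0839 and 0.088). With both factors the libraries held 76.7, 78.4 and 90.3 CPM and overlapped with the unstimulated ones (95% interval of the log2 fold change -0.18 to 0.10, edgeR adjusted p = 0.641). Against FGF2 alone they were higher (0.32 ± 0.07, adjusted p = 0.000325). The interaction term was positive at 0.52 ± 0.10, adjusted p = 9.28e-05. Unstimulated STIA libraries held 92.2, 89.2 and 90.1 CPM and those with OPN 85.7, 88.5 and 82.8 CPM. Ccnd3 shares exonic bases with Bysl, a gene on the opposite strand that held 26.6 to 61.2 CPM, or 54.9% of Ccnd3's counts over all libraries. With the strand setting of the counting not given in the sources used here, reads of the pair may not be told apart. Bysl fell with both factors (-0.67 ± 0.10, adjusted p = 6.48e-06), where Ccnd3 did not pass the test (-0.04), and for OPN on top of FGF2 (-0.47 ± 0.10, adjusted p = 0.00031), where Ccnd3 rose. They lay on the same side of 0 with FGF2 (Bysl -0.20 ± 0.10, adjusted p = 0.0747), in STIA cells (Bysl 0.45 ± 0.10, adjusted p = 0.000908, and Ccnd3 0.11 ± 0.07, adjusted p = 0.233) and in STIA cells with OPN against naive cells with OPN (Bysl 0.36 ± 0.09, adjusted p = 0.00444).

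Set side by side per length, as RPKM (CPM divided by the exon length in kilobases), the 3 D cyclins stood in different proportions across groups, given as a description without a test. In unstimulated naive cells Ccnd2 made up 59.7 ± 1.76% (SD, n = 3) and Ccnd1 30.4 ± 1.02% of summed D cyclin RPKM. With FGF2 Ccnd1 made up 84.9 ± 1.54% and Ccnd2 13.1 ± 1.42%. OPN cells held 37.9 ± 4.99% Ccnd1 and cells with both factors 54.4 ± 3.06%. Per length Ccnd1 was the leading D cyclin in the 2 groups with FGF2 and Ccnd2 in the other 4. On plain counts, without length, Ccnd2 led with both factors (48.7 ± 3.64% against 37.8 ± 2.89% for Ccnd1). The summed D cyclin level was 96.5 ± 3.35 RPKM in unstimulated naive cells, 367 ± 2.05 RPKM with FGF2, 153 ± 18.2 RPKM with OPN and 89.9 ± 5.30 RPKM with both factors. In STIA cells it was 128 ± 6.19 RPKM unstimulated and 116 ± 5.42 RPKM with OPN, with Ccnd1 at 38.1 ± 2.47% and 32.5 ± 1.35%.

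**Figure D2:**
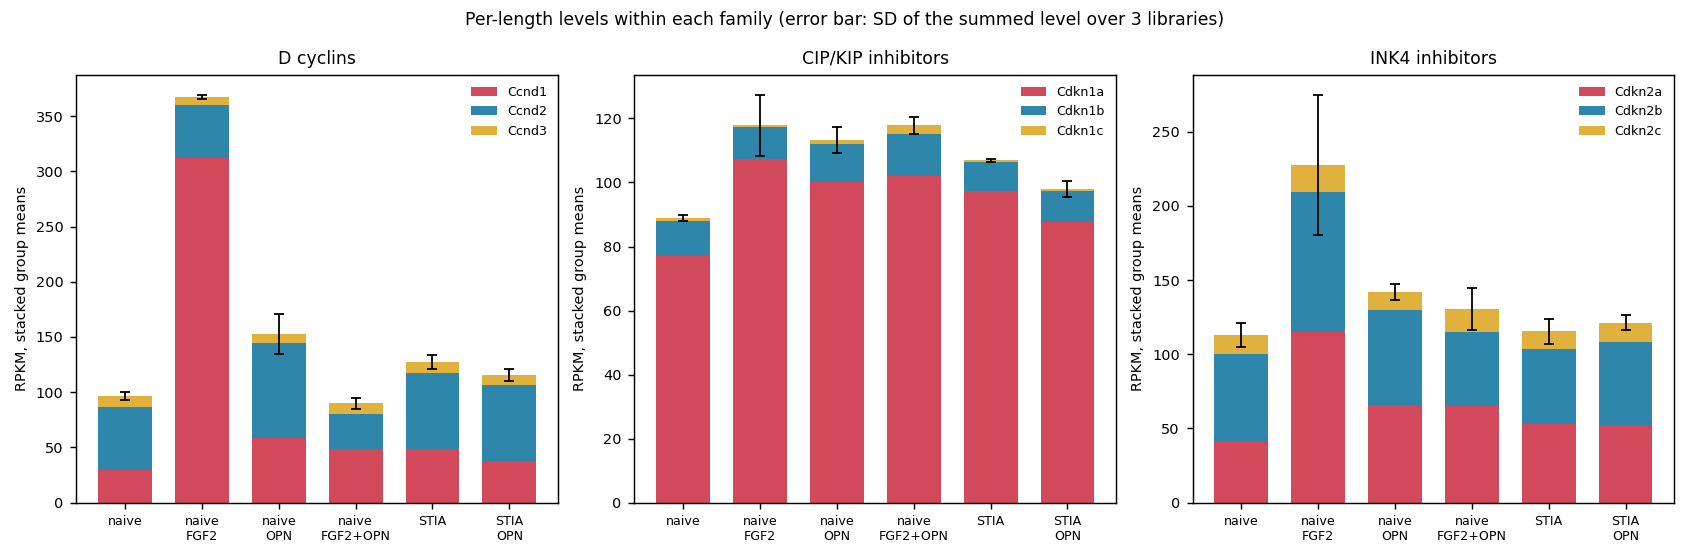
Stacked group means of RPKM for the D cyclins, the CIP/KIP inhibitors and the INK4 inhibitors in the 6 groups, with the SD of the summed level over 3 libraries as error bar. Ccnd1 fills most of the D cyclin bar with FGF2, Cdkn1a fills most of each CIP/KIP bar, and the INK4 bar is tallest and most variable with FGF2.

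Among the CIP/KIP inhibitors, Cdkn1a (ENSMUSG00000023067, chr17:29090976-29100727, plus strand), the gene of p21 and a well-known target of p53, was the most abundant per length in each group, at 86.5 to 91.0% of their summed RPKM by group mean. Its 5′ flank from RefSeq (GRCm38.p6, plus strand, chr17:29090729-29090975, ending before the first annotated exon) is shown because Cdkn1a rose in each treatment of naive cells. Capitals mark a pair of ACATGT words with 4 bases between them, letters like those of p53 response elements, which start 49 bases before the upstream annotated start (chr17:29090979).
Cdkn1a: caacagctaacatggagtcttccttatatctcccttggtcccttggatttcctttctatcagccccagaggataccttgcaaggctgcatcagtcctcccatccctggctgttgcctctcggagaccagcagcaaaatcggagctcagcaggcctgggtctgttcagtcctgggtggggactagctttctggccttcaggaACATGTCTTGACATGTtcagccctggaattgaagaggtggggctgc
That motif was searched after the window had been read, on both strands, and stood in 4 of 32851 RefSeq windows of the same length (0.01218%). The window of a downstream Cdkn1a start (chr17:29093769) lies within annotated exons and is not printed. Of the motifs searched it held only GC boxes (GGGCGG).

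Cdkn1a rose in each treatment of naive cells and was higher in STIA cells. Unstimulated naive libraries held 272, 274 and 276 CPM, and FGF2 libraries held 363, 418 and 362 CPM (0.48 ± 0.06, adjusted p = 2.37e-07). OPN libraries held 350.3, 348 and 368 CPM (0.38 ± 0.06, adjusted p = 3.9e-05), and libraries with both factors held 353, 353 and 380.5 CPM (0.40 ± 0.06, adjusted p = 5.05e-06). These 3 treated groups overlapped with each other and none overlapped with the unstimulated cells. The joint rise was smaller than the sum of the single ones, with an interaction term below 0 (-0.45 ± 0.08, adjusted p = 8.29e-05). That term includes the unstimulated naive libraries, whose time in culture is not given, and the part of culture time in it was not tested. Cells with both factors differed from FGF2 alone by a 95% interval of -0.19 to 0.05 and from OPN alone by one of -0.09 to 0.15, neither past the test. Unstimulated STIA libraries held 345, 346 and 345 CPM, above the naive ones (0.33 ± 0.06, adjusted p = 0.000106), and STIA libraries with OPN held 307, 319 and 309 CPM. Against naive cells with OPN the latter were lower (-0.19 ± 0.06, adjusted p = 0.0114), a call lost without OPN replicate 3 (-0.16, adjusted p = 0.0574).

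Other p53 target genes split in direction. Of 16 tested, 7 rose and 6 fell with FGF2, 8 rose and 4 fell with OPN, and 4 rose and 5 fell with both, where library totals as the only scaling gave 9 and 3 and leaving out 1 library gave 4 to 6 and 3 to 5. Over all genes tested, 29.1% rose and 28.1% fell with FGF2, and 15.2% and 16.5% with OPN. With both factors 23.7% rose and 26.1% fell, and in STIA cells 18.6% were higher and 18.2% lower. With FGF2, Mdm2, the ubiquitin ligase of p53, went from 112 ± 7.09 to 313 ± 20.1 CPM (1.48 ± 0.07, adjusted p = 4.49e-14), and Pmaip1, which encodes the cell death protein NOXA, changed by 1.89 ± 0.20, adjusted p = 7.6e-07. The kinase gene Plk2 fell by 1.16 ± 0.07 on the log2 scale, and the stress gene Sesn2 fell by 1.27 ± 0.06. In STIA cells 6 of the list were higher and 5 lower, with Pmaip1 at 1.02 ± 0.20, adjusted p = 0.00102 and Sesn1 at -0.70 ± 0.08, adjusted p = 1.42e-06. Its medians were -0.02 (FGF2, or 0.06 with library totals alone), 0.20 (OPN), 0.12 (both) and 0.06 (STIA), beside the medians over all genes given above.

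Cdkn1b, the gene of p27 (ENSMUSG00000003031, chr6:134920401-134925513, plus strand), had overlapping groups. Unstimulated naive libraries held 55.1, 44.2 and 49.2 CPM, FGF2 libraries 45.7, 48.8 and 43.8 CPM and OPN libraries 53.2, 51.2 and 58.5 CPM. Neighbouring groups in the order of all 6 means overlapped. FGF2 gave a 95% interval of -0.31 to 0.10 for the log2 fold change (edgeR adjusted p = 0.391), and OPN one of -0.07 to 0.34 (edgeR adjusted p = 0.323). With both factors the libraries held 61.7, 68.0 and 49.8 CPM, a rise of 0.27 ± 0.10, adjusted p = 0.0244. That call did not hold without unstimulated naive replicate 2 or 3, or without replicate 1 or 2 of both factors, where adjusted p ran from 0.0646 to 0.162. Both factors against FGF2 alone gave 0.38 ± 0.10, adjusted p = 0.00235. Both factors against OPN alone (0.14 ± 0.10, adjusted p = 0.223) and the interaction (0.24 ± 0.14, adjusted p = 0.147) did not pass the edgeR test, but both did without replicate 3 of both factors (adjusted p = 0.0162 and 0.0143). STIA libraries held 39.9, 43.3 and 43.0 CPM unstimulated and 40.0, 48.3 and 44.7 CPM with OPN. The unstimulated ones lay below all unstimulated naive libraries without passing the edgeR test (-0.24 ± 0.10, adjusted p = 0.0674), and the test was passed without unstimulated naive replicate 2 (adjusted p = 0.0273) or without replicate 2 or 3 of both factors (adjusted p = 0.0425 and 0.0232). It was also passed without a filter on low counts (adjusted p = 0.0148) and with only the groups compared (adjusted p = 0.0152).

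Cdkn1c, the imprinted gene of p57 (ENSMUSG00000037664, chr7:143458339-143461050, minus strand), was rare and changed in both directions. Each library held between 17 and 234 counts of it, above the 3-count floor. Unstimulated naive libraries held 1.74, 2.09 and 2.22 CPM, FGF2 libraries 0.567, 1.19 and 0.787 CPM and libraries with both factors 5.88, 5.69 and 5.40 CPM. The FGF2 libraries lay below the unstimulated ones and those with both factors above all other libraries. Cdkn1c fell by 1.24 ± 0.22 on the log2 scale with FGF2 (adjusted p = 5.07e-05), while both factors raised it by 1.49 ± 0.19, adjusted p = 7e-07. OPN alone gave 2.56, 2.29 and 2.41 CPM, with a 95% interval of -0.14 to 0.67 for its log2 fold change (edgeR adjusted p = 0.314). Cells with both factors held 6.65-fold more than cells with FGF2 (2.73 ± 0.21, adjusted p = 1.48e-10) and 2.33-fold more than cells with OPN (1.22 ± 0.18, adjusted p = 4.75e-06). FGF2 therefore lowered Cdkn1c without OPN and raised it with OPN, with an interaction of 2.47 ± 0.29, adjusted p = 2.33e-07. STIA libraries held 1.10, 0.910 and 0.817 CPM unstimulated and 0.806, 0.950 and 0.991 CPM with OPN, all below the naive libraries with the same treatment (-1.08 ± 0.22, adjusted p = 0.000573 unstimulated and -1.39 ± 0.21, adjusted p = 2.26e-05 with OPN).

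The INK4 genes Cdkn2a and Cdkn2b are neighbours on chromosome 4, both on the minus strand (ENSMUSG00000044303, chr4:89274471-89294653, and ENSMUSG00000073802, chr4:89306299-89311039). Cdkn2a has an upstream start for ARF, which restrains MDM2, and a downstream start for p16, and counts per gene pool both. The RefSeq (GRCm38.p6) 5′ flanks of the downstream Cdkn2a start (chr4:89282193-89282442) and of Cdkn2b, the gene of p15 (chr4:89311040-89311282), are shown because both genes rose with FGF2. They are written 5′ to 3′ on the minus strand. Capitals in the first mark TTTAGCGC, a match of the E2F-like pattern searched (TTTNGCGC, any base at N), 244 bases before the start. Capitals in the second mark a cyclic AMP response element (TGACGTCA, 46 bases before the start).
Cdkn2a: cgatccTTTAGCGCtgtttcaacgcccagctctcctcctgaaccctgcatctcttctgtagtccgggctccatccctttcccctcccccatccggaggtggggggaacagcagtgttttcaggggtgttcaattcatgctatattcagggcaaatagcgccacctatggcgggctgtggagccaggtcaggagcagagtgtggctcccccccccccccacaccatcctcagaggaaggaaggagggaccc
Cdkn2b: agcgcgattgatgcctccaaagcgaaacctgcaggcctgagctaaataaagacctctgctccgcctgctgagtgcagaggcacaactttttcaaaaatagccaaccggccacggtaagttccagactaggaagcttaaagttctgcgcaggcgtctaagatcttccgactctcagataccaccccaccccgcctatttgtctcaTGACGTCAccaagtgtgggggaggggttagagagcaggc
On either strand the TTTNGCGC pattern stood in 1.132% and the TGACGTCA letters in 1.546% of 32851 windows of this length. Windows of 6 of the 10 genes were found, 10 windows in all, and in none of them stood an AP-1 motif (TGANTCA, in 6.749% of all windows), an E-box (CACGTG, 6.021%) or a TATA box (TATAAA, 12.37%). A GC box (GGGCGG, 32.74% of all windows) stood in 6 of the 10, and an ETS motif (CCGGAAG, 6.907%) in 1, a Ccnd3 window. These are matches of letters in these windows only.

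Cdkn2a and Cdkn2b were both highest with FGF2, and Cdkn2a was above unstimulated naive cells in every treatment of naive cells. Cdkn2a stood at 43.0, 53.9 and 48.3 CPM in unstimulated naive libraries, 119.9, 169.6 and 114 CPM with FGF2, 73.8, 86.0 and 70.8 CPM with OPN and 74.6, 64.2 and 89.1 CPM with both factors. Cdkn2b stood at 76.7, 82.8 and 85.0 CPM in unstimulated naive libraries, 121, 164 and 108 CPM with FGF2, 87.1, 88.2 and 92.1 CPM with OPN and 68.2, 66.2 and 73.9 CPM with both factors. FGF2 replicate 2 was the highest library for both genes, and the other FGF2 libraries still lay above all libraries of other groups. FGF2 raised Cdkn2a 2.78-fold (1.48 ± 0.16, adjusted p = 7.77e-07) and Cdkn2b 1.61-fold (0.68 ± 0.10, adjusted p = 8.14e-06). Without FGF2 replicate 2 the values were 1.28 (adjusted p = 1.39e-07) and 0.49 (adjusted p = 1.31e-06). OPN raised Cdkn2a by 0.67 ± 0.16, adjusted p = 0.00446, whereas Cdkn2b had a 95% interval of -0.08 to 0.34 (edgeR adjusted p = 0.358). With both factors Cdkn2a stayed above unstimulated cells (0.65 ± 0.16, adjusted p = 0.00279), and Cdkn2b did not pass the test (-0.23, edgeR adjusted p = 0.0664), though it did without FGF2 replicate 2 or 3, which only enter the shared spread (adjusted p = 0.00282 and 0.0218). Cdkn2b with both factors also passed the edgeR test without a filter on low counts (adjusted p = 0.00543) and with only the groups compared (adjusted p = 0.0248).

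OPN added to FGF2 lowered both genes (Cdkn2a -0.82 ± 0.15, adjusted p = 0.000263, and Cdkn2b -0.92 ± 0.10, adjusted p = 2.11e-07), and both interaction terms were negative (-1.49 ± 0.22, adjusted p = 3.91e-05, and -1.04 ± 0.14, adjusted p = 5.34e-06). The comparison of both factors with FGF2 alone called 58.4% of all genes (27.3% higher and 31.2% lower) and, of the 10 genes here, 3 higher and 6 lower. FGF2 added to OPN lowered Cdkn2b (-0.36 ± 0.10, adjusted p = 0.00516) and left Cdkn2a with a 95% interval of -0.34 to 0.31 (edgeR adjusted p = 0.934). That comparison called 56.5% of all genes (27.1% higher and 29.5% lower) and 3 of the 10 higher and 3 lower, the former including Ccnd3 at adjusted p = 0.0479, which rose above 0.05 (0.0533 to 0.300) in 12 of the 18 refits that each left out 1 library, all but unstimulated naive replicate 2, FGF2 replicates 2 and 3, OPN replicate 2 and FGF2 with OPN replicates 1 and 2. In STIA cells Cdkn2a was at 57.0, 59.2 and 71.2 CPM unstimulated and 62.2, 66.0 and 56.6 CPM with OPN. Cdkn2b was at 68.2, 66.3 and 73.7 CPM unstimulated and 74.3, 79.6 and 77.7 CPM with OPN. Neither gene passed the test between unstimulated STIA and naive cells (Cdkn2a 0.37 ± 0.16, adjusted p = 0.081 and Cdkn2b -0.23 ± 0.10, adjusted p = 0.084, edgeR), although the libraries did not overlap. DESeq2 called Cdkn2a in that comparison (adjusted p = 0.023), and without FGF2 replicate 2 edgeR called both genes (adjusted p = 0.0204 and 0.00446), as it called Cdkn2b without FGF2 replicate 3 (adjusted p = 0.0313). Without a filter on low counts edgeR called both (adjusted p = 1.36e-05 and 0.0101), as it did with only the groups compared (0.00495 and 0.00487). Library totals as the only scaling gave a call for Cdkn2a (adjusted p = 0.0437). Per length, Cdkn2a stood at 0.704 ± 0.0594 times the Cdkn2b level in unstimulated naive cells, the lowest group mean. In other naive cells the ratio was 1.22 ± 0.0401 with FGF2, 1.02 ± 0.124 with OPN and 1.29 ± 0.139 with both factors. In STIA cells it was 1.06 ± 0.0766 unstimulated and 0.947 ± 0.0723 with OPN.

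Cdkn2c, the gene of p18 (ENSMUSG00000028551), lies elsewhere on chromosome 4 (chr4:109660876-109667189, minus strand). Its level was 32.2, 35.6 and 38.5 CPM in unstimulated naive libraries and in FGF2 libraries 48.9, 50.7 and 49.5 CPM, without overlap, a rise of 0.49 ± 0.07, adjusted p = 6.03e-06. Libraries with both factors held 42.2, 41.3 and 43.2 CPM, between the other groups, at 0.25 ± 0.07, adjusted p = 0.00693 against unstimulated cells. That call ended without unstimulated naive replicate 1 (adjusted p = 0.0612). OPN libraries held 33.7, 30.9 and 33.5 CPM, with a 95% interval of -0.27 to 0.04 for the log2 fold change (edgeR adjusted p = 0.255). For Cdkn2c the interaction term did not pass the test, with a 95% interval of -0.34 to 0.10 (edgeR adjusted p = 0.363). FGF2 on top of OPN raised Cdkn2c (0.37 ± 0.07, adjusted p = 0.000206), and OPN on top of FGF2 lowered it (-0.23 ± 0.07, adjusted p = 0.00914). STIA libraries held 30.9, 36.9 and 30.4 CPM unstimulated and 33.7, 35.5 and 35.9 CPM with OPN, and the former overlapped with the naive ones (-0.12 ± 0.08, adjusted p = 0.249, edgeR, a difference not called except without STIA replicate 2, where adjusted p was 0.0444).

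**Figure D3:**
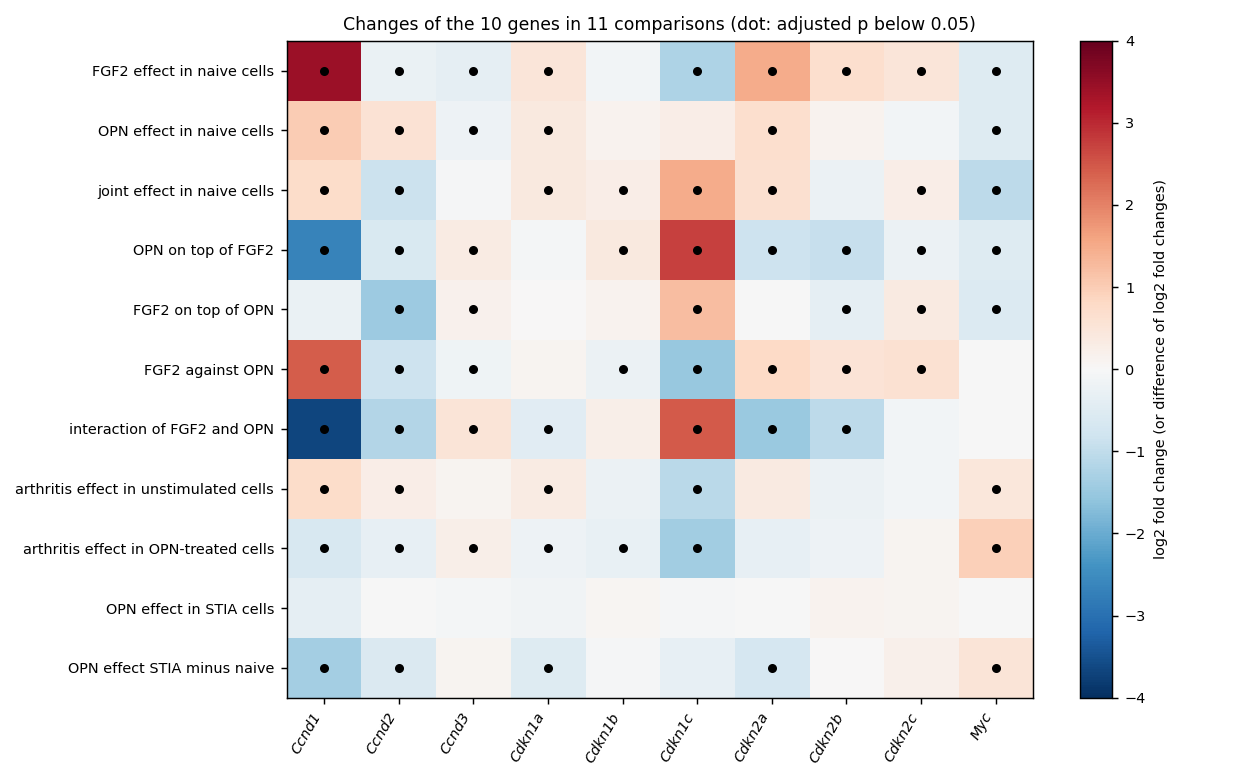
Log2 fold changes of the 10 genes (columns) in 11 comparisons (rows), with colour from -4 (blue) to 4 (red) and a dot where the edgeR adjusted p was below 0.05; the interaction and the last row are differences of log2 fold changes. Ccnd1 and Cdkn1c carry the largest values of opposite sign in the interaction, -3.67 and 2.47, and no dot stands in the row for OPN in STIA cells.

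Myc (ENSMUSG00000022346, chr15:61985391-61990374, plus strand) fell with each factor in naive cells and was higher in STIA cells. Unstimulated naive libraries held 71.0, 72.5 and 74.8 CPM of Myc, FGF2 libraries 53.6, 42.2 and 55.2 CPM and OPN libraries 54.3, 53.2 and 45.0 CPM. All treated libraries lay below the unstimulated ones, and those of the 2 single factors overlapped. Myc fell by 0.53 ± 0.12 on the log2 scale with FGF2 (adjusted p = 0.00111), and it fell by 0.52 ± 0.12 with OPN (adjusted p = 0.00362). With both factors the libraries held 28.9, 31.8 and 44.5 CPM, 2.08-fold below unstimulated cells (-1.06 ± 0.12, adjusted p = 1.45e-06). Each factor lowered Myc in the presence of the other (OPN -0.53 ± 0.12, adjusted p = 0.00142, and FGF2 -0.54 ± 0.12, adjusted p = 0.00117). The interaction term had a 95% interval of -0.37 to 0.35 (edgeR adjusted p = 0.964), so no departure from adding the 2 log2 effects was detected, within that interval. STIA libraries held 99.5, 98.9 and 99.5 CPM unstimulated and 103, 95.7 and 99.1 CPM with OPN, all above every naive library. The difference was 0.45 ± 0.12, adjusted p = 0.00681 between unstimulated cells and 0.96 ± 0.12, adjusted p = 7.29e-06 between cells with OPN.

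Myc's partners and antagonists (Max, the Mxd and Mxi repressors, Mnt and others) did not share 1 direction. Of 12 tested, 3 rose and 3 fell with FGF2, 2 and 4 with OPN, 3 and 3 with both factors (6 and 1 with library totals as the only scaling), and 2 and 4 in STIA cells. Leaving out 1 library gave 2 to 3 and 2 to 4 with FGF2, 1 to 2 and 2 to 4 with OPN, 2 to 3 and 2 to 3 with both and 1 to 2 and 4 in STIA cells. Of all genes tested, 29.1% rose and 28.1% fell with FGF2, and 15.2% and 16.5% with OPN. With both factors 23.7% rose and 26.1% fell, and in STIA cells 18.6% were higher and 18.2% lower. The split of this list with FGF2 or with both factors was thus near that of all genes. In STIA cells 4 repressor genes of the network fell: Mxd4 (-0.53 ± 0.05, adjusted p = 1.43e-07), Mxd1 (-0.45 ± 0.14, adjusted p = 0.0118), Mxi1 (-0.45 ± 0.10, adjusted p = 0.000955) and Mnt (-0.35 ± 0.06, adjusted p = 7.18e-05). Mxi1 also fell with OPN, from 29.0 ± 3.21 to 17.8 ± 0.174 CPM (-0.70 ± 0.10, adjusted p = 1.02e-05), and rose with both factors (0.48 ± 0.09, adjusted p = 0.000168). Mxd4 fell with FGF2 (-0.54 ± 0.05, adjusted p = 1.05e-08).

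Genes of ribosome biogenesis and related Myc targets followed Myc in some comparisons and not in others. Of all genes tested, 26.1% fell with both factors and 18.6% were higher in STIA cells. With FGF2 29.1% rose and 28.1% fell, and with OPN 15.2% and 16.5%. All 19 listed genes fell with both factors (median -0.72, all genes -0.00774), led by Odc1, the first enzyme of polyamine synthesis (-1.27 ± 0.10, adjusted p = 8.37e-10), and the nucleolar genes Nop56 (-1.02 ± 0.09, adjusted p = 3.16e-09) and Dkc1 (-0.90 ± 0.09, adjusted p = 2.06e-08). Library totals as the only scaling left 18 of them lower. All 19 were higher in STIA cells (median 0.44, all genes -0.00979), led by Dkc1 (0.67 ± 0.08, adjusted p = 2.6e-06) and Nolc1 (0.65 ± 0.08, adjusted p = 1.29e-06), and leaving out 1 library left 14 to 19 of them called. With FGF2 alone, where Myc fell, 2 rose and 3 fell (median -0.06, all genes 0.00990; 2 to 6 rose and 3 to 5 fell without 1 library, with medians from -0.13 to 0.0294, and 5 rose and 3 fell with library totals as the only scaling). With OPN alone 2 rose and 4 fell (median -0.03, all genes 0.00426), and without 1 library 0 to 3 rose and 3 to 5 fell, with medians from -0.0487 to 0.0193. Odc1 and the polyamine gene Srm were among the genes that fell with FGF2 (-0.56 ± 0.09, adjusted p = 3.09e-05 and -0.49 ± 0.11, adjusted p = 0.000815), and Dkc1 was among those that rose (0.39 ± 0.09, adjusted p = 0.000472).

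Downstream of the D cyclins, S-phase and mitotic genes moved with the combination and with arthritis. Of all genes tested, 29.1% rose with FGF2, and 15.2% rose and 16.5% fell with OPN. With both factors 26.1% fell, and in STIA cells 18.6% were higher. Of 12 S-phase genes 7 rose with FGF2 (median 0.33), led by the licensing factor gene Cdt1 (1.14 ± 0.10, adjusted p = 9.74e-10) and the helicase gene Mcm4 (0.68 ± 0.09, adjusted p = 2.2e-06), and of 12 mitotic genes 7 rose (median 0.31). Without 1 library 5 to 9 S-phase and 5 to 11 mitotic genes rose with FGF2. OPN gave 2 S-phase genes higher and 2 lower (1 to 2 and 2 to 4 without 1 library), and 4 mitotic genes lower (2 to 6 without 1 library, 7 without a filter on low counts and 8 in a fit of only the groups compared), among them the mitotic transcription factor gene Foxm1 (-0.56 ± 0.09, adjusted p = 8.79e-05). With both factors all 12 S-phase genes (median -0.68) and all 12 mitotic genes (median -0.84) fell, or 11 of each with library totals as the only scaling. Mcm3 fell from 51.6 ± 3.72 to 20.3 ± 4.60 CPM (-1.34 ± 0.14, adjusted p = 3.98e-07) and Mki67, the proliferation marker, from 104 ± 2.39 to 49.1 ± 6.80 CPM (-1.08 ± 0.09, adjusted p = 5.14e-09). Cells with both factors thus had Ccnd1 above and S-phase and mitotic genes below unstimulated cells. In STIA cells all 12 of each list were higher, at medians of 0.56 and 0.53, for example Rrm2, a subunit of ribonucleotide reductase (1.14 ± 0.22, adjusted p = 0.0011), and Cdk1, the mitotic kinase (0.63 ± 0.10, adjusted p = 6.15e-05).

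The genes between the D cyclins and S phase (CDKs, RB family, E2Fs and cyclin E) are given by the CDK-RB-E2F list. Of 22 tested, 9 rose and 1 fell with FGF2, 3 and 2 with OPN, 3 and 17 with both factors and 13 and 1 in STIA cells. Without 1 library the counts with OPN were 1 to 5 and 1 to 3. Library totals as the only scaling gave 5 and 12 with both factors. Of all genes tested, 29.1% rose and 28.1% fell with FGF2, and 15.2% and 16.5% with OPN. With both factors 23.7% rose and 26.1% fell, and in STIA cells 18.6% were higher and 18.2% lower. Medians of the list were 0.12, -0.02, -0.37 and 0.34, against 0.00990, 0.00426, -0.00774 and -0.00979 over all genes tested. Cdk6, a partner of the D cyclins, rose with FGF2 (0.70 ± 0.10, adjusted p = 2.02e-06) and fell with both factors (-1.07 ± 0.10, adjusted p = 2.05e-08). E2f8, an atypical repressor E2F, went from 9.43 ± 0.213 CPM in unstimulated cells to 88.4 ± 8.62 CPM with FGF2 (3.23 ± 0.11, adjusted p = 1.33e-16) and was at 6.64 ± 0.600 CPM with both factors (-3.73 ± 0.12, adjusted p = 9.64e-17 against FGF2 alone). The cyclin E genes fell with both factors (Ccne1 -1.07 ± 0.10, adjusted p = 1.9e-08 and Ccne2 -1.38 ± 0.17, adjusted p = 9.33e-07) and were higher in STIA cells (0.68 ± 0.10, adjusted p = 1.49e-05 and 0.95 ± 0.15, adjusted p = 5.26e-05).

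**Figure D4:**
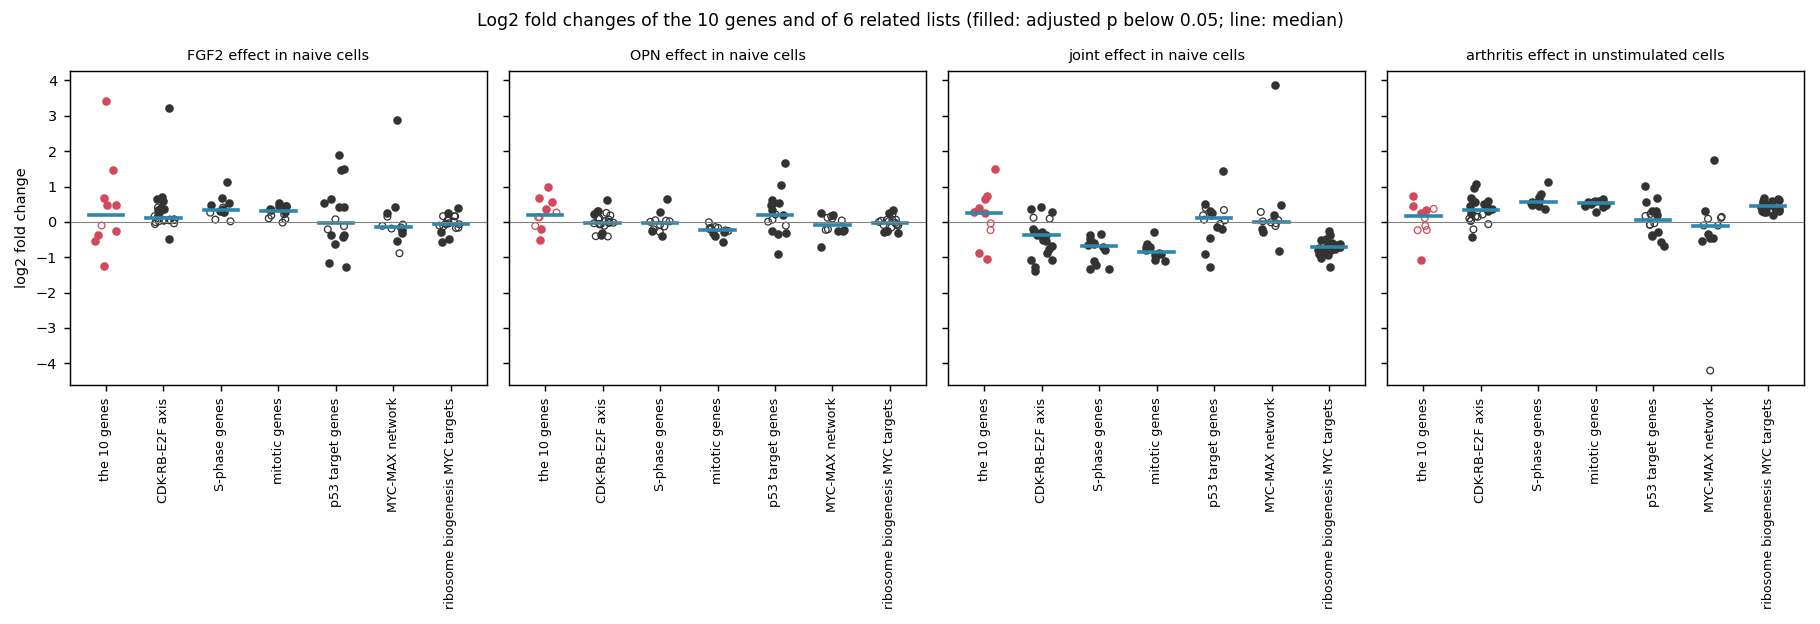
Log2 fold changes of the 10 genes (red) and of the genes of 6 related lists (black) in 4 comparisons, with filled points for an edgeR adjusted p below 0.05, open points otherwise, and a blue line at each median. Ribosome biogenesis, S-phase and mitotic genes lie below 0 with both factors and above 0 in STIA cells, while the 10 genes lie on both sides of 0 in each panel; the open point below -4 in STIA cells is Mlxipl, a rare transcript pointed out after its values were seen.

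Scaling by library totals alone moved calls toward higher in the comparisons that involve FGF2. Library totals alone moved the median change over all genes from -0.00774 to 0.136 for both factors against unstimulated cells, and the split of calls from 3573 higher and 3940 lower to 5253 higher and 2414 lower. For FGF2 on top of OPN the median moved from -0.0111 to 0.118 and the split from 4079 and 4443 to 5433 and 3060. Smaller moves were seen for OPN on top of FGF2, from 4108 higher and 4696 lower to 4743 and 3960, for FGF2 alone, from 4379 higher and 4230 lower to 5233 and 3535 (median 0.00990 to 0.0897), and for FGF2 against OPN, from 4745 and 4533 to 5375 and 3965 (median 0.00100 to 0.0661). Under that scaling Ccnd3 with both factors was at 0.10 in place of -0.04, and neither passed the test.

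OPN was given to naive and to STIA cells at the same dose for 3 days, and its effect on 5 of the 10 genes differed between the 2. In STIA cells the edgeR test called 0 of the 10 genes after OPN, in a comparison that called 2.17% of all genes (1.15% higher and 1.02% lower), with 2 of the 10 at an unadjusted p below 0.05. DESeq2 called 1, Ccnd1 (adjusted p = 0.0468), and edgeR called Ccnd1 without naive OPN replicate 2 or 3 (adjusted p = 0.0172 and 0.0379). Without a filter on low counts edgeR called Ccnd1 lower (-0.37, adjusted p = 4.49e-05). With only the groups compared it called Ccnd1 (-0.37, adjusted p = 0.00234) and Cdkn1a (-0.15, adjusted p = 0.0383) lower. For both genes the STIA libraries with OPN lay below the unstimulated ones without overlap. For Ccnd1 the 95% interval of the change was -0.63 to -0.10 (adjusted p = 0.158 by edgeR), for Cdkn1a -0.27 to -0.03, for Ccnd2 -0.17 to 0.16 and for Myc -0.25 to 0.25. Intervals of the other 6 were -0.22 to 0.06 for Ccnd3, -0.13 to 0.28 for Cdkn1b, -0.55 to 0.45 for Cdkn1c, -0.35 to 0.31 for Cdkn2a, -0.06 to 0.37 for Cdkn2b and -0.05 to 0.26 for Cdkn2c. Among the 93 tested genes of the 6 related lists 1 was called, Gdf15 of the p53 list (-0.53 ± 0.10, adjusted p = 0.00857), and 13 had an unadjusted p below 0.05. The OPN effect in STIA cells minus that in naive cells was called for 5 of the 10 genes, 1 with a positive and 4 with a negative difference, where 22.3% of all genes were called (11.8% and 10.5%). It was -1.37 ± 0.18, adjusted p = 3.44e-05 for Ccnd1, -0.58 ± 0.11, adjusted p = 0.000764 for Ccnd2 and -0.52 ± 0.08, adjusted p = 7.73e-05 for Cdkn1a. For Cdkn2a it was -0.69 ± 0.22, adjusted p = 0.0363 and for Myc 0.51 ± 0.17, adjusted p = 0.0376. The other 5 did not pass the test, with 95% intervals of -0.08 to 0.32 (Ccnd3), -0.34 to 0.23 (Cdkn1b), -0.96 to 0.33 (Cdkn1c), -0.28 to 0.33 (Cdkn2b) and -0.00 to 0.44 (Cdkn2c), although Cdkn2c passed it without STIA replicate 2 (0.31, adjusted p = 0.0364). The calls for Cdkn2a and Myc were near the threshold: leaving out any 1 of 8 libraries for Cdkn2a, or of 11 for Myc, took the adjusted p above 0.05 (0.0536 to 0.0915 for Cdkn2a and 0.0528 to 0.0828 for Myc). For Cdkn2a these were unstimulated naive replicates 1 and 3, OPN replicates 1 and 2, unstimulated STIA replicates 2 and 3 and STIA with OPN replicates 1 and 3, and for Myc all but FGF2 replicates 1, 2 and 3, OPN replicate 1 and FGF2 with OPN replicates 1, 2 and 3.

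Between STIA and naive cells that both had OPN, Ccnd2 was lower in STIA cells (-0.33 ± 0.08, adjusted p = 0.00243) and Ccnd3 higher (0.23 ± 0.07, adjusted p = 0.00986), as was Bysl on its opposite strand, besides the differences in Ccnd1, Cdkn1a, Cdkn1c and Myc given above. Cdkn1b was also lower (-0.29 ± 0.10, adjusted p = 0.0222), a call that ended without OPN replicate 3 and STIA with OPN replicates 1 and 3, one at a time (adjusted p 0.0522 to 0.117). Cdkn2a, Cdkn2b and Cdkn2c did not pass the edgeR test (adjusted p = 0.115, 0.114 and 0.293), and the first 2 passed it without FGF2 replicate 2 (adjusted p = 0.0354 and 0.00924). These 2 also passed it without a filter on low counts (adjusted p = 0.000142 and 0.022) and with only the groups compared (0.00283 and 0.00288). DESeq2 called Cdkn2a lower (adjusted p = 0.0466).

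FGF2 and OPN, set against each other in naive cells, called 61.6% of all genes (31.5% higher and 30.1% lower with FGF2) and 4 of the 10 genes higher with FGF2 and 4 lower. Ccnd1 (2.41 ± 0.13, adjusted p = 1.74e-11), Cdkn2a (0.81 ± 0.15, adjusted p = 0.000274), Cdkn2b (0.55 ± 0.10, adjusted p = 7.96e-05) and Cdkn2c (0.60 ± 0.07, adjusted p = 2.47e-07) were higher with FGF2. Without FGF2 replicate 2 the Cdkn2b difference was 0.36. Ccnd2 (-0.84 ± 0.08, adjusted p = 4.53e-09) and Cdkn1c (-1.51 ± 0.22, adjusted p = 2.31e-06) were lower with FGF2, and Ccnd3 and Cdkn1b were lower at adjusted p = 0.0445 and 0.0423, calls that ended in 12 and 7 of the refits without 1 library (adjusted p 0.0503 to 0.218 and 0.0513 to 0.16). The libraries were, for Ccnd3, all but unstimulated naive replicate 2, FGF2 replicate 3, OPN replicate 3 and FGF2 with OPN replicates 1, 2 and 3, and, for Cdkn1b, unstimulated naive replicate 3, FGF2 replicates 1 and 3, OPN replicates 1 and 3, unstimulated STIA replicate 1 and STIA with OPN replicate 3. Myc had a 95% interval of -0.27 to 0.24 for this difference and Cdkn1a one of -0.02 to 0.22.

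Genes with the most similar pattern were sought by Pearson r of log2 CPM over the 18 libraries among 10566 genes. The libraries form 6 groups of 3, so r mainly reflects the group means, and it is given as a description. For Ccnd1 they were Ptpre (r = 0.990), Mrps6 (0.987) and Tbc1d2 (0.982), and for Ccnd2 Gtf2h1 (0.966), Rragc (0.965) and Canx (0.964). Cdkn1a came closest to the p53 target Pmaip1 (0.907), Cdkn1c to Gm2a (0.972), Cdkn2a to Anxa5 (0.971), Cdkn2b to Ern1 (0.908), Cdkn2c to Mmp3 (0.948) and Myc to Elac2 (0.977). Ccnd3 and Cdkn1b came closest to Lrrc32 (0.951) and Zmym6 (0.937). Among the 10 genes themselves, Ccnd1 and Cdkn2a had r = 0.908 and Ccnd1 and Cdkn2b 0.803, pairs that were all highest with FGF2. Other pairs had values of like size, among them Cdkn1a and Cdkn2a (0.819) and Cdkn1b and Cdkn1c (0.784). Ccnd3 and Cdkn2b (-0.837) and Cdkn1b and Myc (-0.797) had negative ones.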

How the data were processed

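RNA was sequenced from 18 libraries of sorted synovial fibroblasts, 3 in each of 6 groups. The authors deposited 1 table of whole-number counts per gene and library, made with STAR and featureCounts on GRCm38 (mm10) per the submitters' processing notes. Software versions, annotation release, strand setting and multimapping rule were not given in the sources used here. Exon bases from the deposited Length column gave RPKM. Symbols were matched for 32158 of 32285 identifiers, and the other 127 held 0.0294% of counts. Library totals were 27527043 to 40357342 counts, so that 3 counts were 0.0743 to 0.109 CPM, and such limits cover counting error only. Replicate libraries differed beyond sampling noise in all 18 pairs.

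Counts were tested with edgeR 4.0.16 (R 4.3.3, limma 3.58.1): filterByExpr left 15072 genes, TMM scaling, robust quasi-likelihood fit of 6 group means, contrasts, and Benjamini-Hochberg adjustment over all genes tested. The biological coefficient of variation was 7.99%. The scripts were tested on simulated data. Alternatives were DESeq2 1.42.0, relative log expression size factors, library totals alone, no filter on low counts, only the groups compared, the replicate number as a block, and leaving out each library. The main fit has no block, because the replicate numbers are not said to link libraries across groups. Of 45 same-numbered pairs 6 had correlations of deviations above 0.1, up to 0.233. The mitochondrial share of counts was lower in replicate 3 than in replicates 1 and 2, except in naive cells with OPN. Unstimulated naive libraries, for example, held 0.666, 0.562 and 0.374%.

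By the naming rule all 10 genes are described. From the related lists up to 4 called genes with the largest change and a mean of at least 5 CPM are named per comparison. Similar patterns were the 3 highest Pearson correlations of log2 CPM with a prior count of 2. The genes and lists were chosen with earlier results of these data known, and no list test was made. The p53-type motif was chosen after its window had been read. Promoter windows came from RefSeq (GRCm38.p6) and none was used for Ccnd1, Ccnd2, Cdkn1c or Myc.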

Additional observations from a re-analysis of the deposited data

Results flagged for a closer look

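The effect of FGF2 with OPN present differed from its effect without OPN for 7 of the 10 genes (edgeR interaction term over 12 naive libraries within the fit of 18). The difference of log2 fold changes was -3.67 for Ccnd1, -1.18 for Ccnd2, -0.449 for Cdkn1a, -1.49 for Cdkn2a and -1.04 for Cdkn2b, and it was 0.522 for Ccnd3 and 2.47 for Cdkn1c. Adjusted p ran from 2.05e-11 (Ccnd1) to 9.28e-05 (Ccnd3), where 51.2% of all genes tested were called. FGF2 and OPN moved Ccnd2 in opposite directions when given alone, and Cdkn1c fell with FGF2 and was highest with both factors.

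The effect of OPN in STIA cells differed from that in naive cells for 5 of the 10 genes by the same kind of test, where 22.3% of all genes were called. The difference was -1.37 for Ccnd1, -0.576 for Ccnd2, -0.524 for Cdkn1a, -0.686 for Cdkn2a and 0.513 for Myc, with adjusted p of 3.44e-05, 0.000764, 7.73e-05, 0.0363 and 0.0376. All of these differences were between OPN effects called in naive cells and OPN effects not called in STIA cells in the main edgeR fit. With only the groups compared, edgeR called Ccnd1 and Cdkn1a lower in STIA cells with OPN (adjusted p = 0.00234 and 0.0383). Single libraries were checked by leaving each out, and no outlier test was made on groups of 3.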

How the results depend on the processing

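Of 2640 recomputed log2 fold changes of the 10 genes, 2484 kept their direction and their side of the threshold, 77 lost a call, 40 gained one and 39 turned sign, all of the last from values not called. Library totals alone turned Ccnd3 with both factors to 0.10, Cdkn2a for FGF2 on top of OPN to 0.11, Myc for FGF2 against OPN to 0.0508 and for the interaction to 0.0304, and Cdkn2b for the OPN effect in STIA minus naive cells to -0.002059. Without a filter the OPN effect in STIA cells was 0.003007 for Ccnd2 and 0.001158 for Myc. With only the groups compared, Cdkn2a for FGF2 on top of OPN was 0.002573 and the Myc interaction 0.0263, and DESeq2 gave 0.000676 for the latter. Leaving out 1 library gave -0.12 to 0.00346 for Ccnd3 with both factors, -0.0114 to 0.0504 for Cdkn1a and -0.15 to 0.0905 for Cdkn2a for FGF2 on top of OPN, -0.0938 to 0.0976 for Myc for FGF2 against OPN, and -0.22 to 0.12 for the Myc interaction. For OPN in STIA cells it gave -0.0562 to 0.0410 (Ccnd2), -0.14 to 0.0934 (Cdkn1c), -0.0789 to 0.0856 (Cdkn2a) and -0.0283 to 0.0233 (Myc), and for STIA minus naive -0.14 to 0.0229 (Cdkn1b) and -0.004513 to 0.0723 (Cdkn2b). The cause of these turns was not tested.

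Total counts of calls moved by more than 1.5 times in 3 comparisons. For STIA against naive cells 8 of the 10 genes were called without a filter and with only the groups compared, against 5. For OPN in STIA cells 1 of the 10 was called without a filter, 2 with only the groups compared, 1 by DESeq2 and 0 to 1 without 1 library, against 0 by edgeR, and 948, 1367, 606 and 38 to 615 of all genes, against 327. For STIA minus naive 3 to 5 of the 10 were called without 1 library. In the other comparisons that range was 8 to 9 (FGF2, 9 in all libraries), 5 to 6 (OPN, 6), 7 to 9 (both, 8), 4 to 7 (STIA, 5), 5 to 6 (FGF2 on top of OPN, 6), 6 to 8 (FGF2 against OPN, 8), 7 to 8 (interaction, 7), 5 to 9 (STIA against naive with OPN, 7) and 9 throughout (OPN on top of FGF2). With the replicate block 108 of 110 values kept their call, and 2 were lost, both for Ccnd3 (FGF2 on top of OPN, adjusted p = 0.0614, and FGF2 against OPN, 0.0543). Same-numbered libraries had correlations of deviations from -0.205 to 0.233, 6 of 45 above 0.1, and 2 of 18 libraries correlated best with their own number. Cdkn1c rested on 17 to 36 counts a library with FGF2, fewer than the other genes.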
